A study of Mus musculus with 28 samples.

Results

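H3K27ac was compared between pachytene spermatocytes (PS), cells in the long prophase of the meiotic divisions, and round spermatids (RS), the haploid cells that those divisions produce. Both cell types came from testes of adult C57BL/6 mice carrying a knockout of Scml2 (Scml2-KO), with 2 ChIPmentation libraries per cell type. ChIPmentation is a chromatin immunoprecipitation in which a transposase adds the sequencing adapters. The germ cells of the series were isolated by STA-PUT sedimentation or by magnetic sorting (MACS), and these were 4 of the series' 28 libraries, of which 16 were Inputs without immunoprecipitation. No H3K27ac library of wild-type PS or RS was analysed here, so every stage difference below was measured in Scml2-KO cells alone and cannot be assigned to the genotype. Overlapping peaks of the 4 libraries merged into 110893 regions, and 849 regions that overlapped a peak of any Input were removed. Of the 110044 regions left, 17513 were promoter regions, within 1000 bp of a transcript start listed in the deposited tables, and 92531 were distal. The labels do not say whether replicates came from separate animals, so p-values measure only the spread between these libraries, which may be technical.

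H3K27ac, acetylation of lysine 27 on histone H3, is placed by the acetyltransferases p300 and CBP and marks promoters and enhancers in use. Spermatocytes transcribe genes of recombination and synapsis and already store messages for later stages, while their X and Y chromosomes are silenced in the sex body. Round spermatids begin to build the acrosome and flagellum, and histones are exchanged for transition proteins and protamines at a later stage. SCML2 is a germline Polycomb-type protein known to act on gene regulation at the entry into meiosis.

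Fold enrichment, the unit used throughout, is the deposited height of a peak's summit over the library's background height, and a region's value in a library is its highest summit. A difference was tested where all 4 libraries had a peak, which held for 21053 regions (19.1%), 11546 promoter and 9507 distal. It is given as log2 RS minus PS with each library's median tested region taken as its zero, so 0 stands for the change of the median region. In centred values, 2629 regions (12.5%) were higher and 1688 (8.02%) lower in RS (limma, Benjamini-Hochberg adjusted p under 0.05). Peaks were called in 1 library only in 56270 regions (51.1%).

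The promoter sequences of 6 genes described below are shown because they carry the short motifs counted further on. Each is the 250 bases before the RefSeq start in GRCm38.p6, the patched form of the mm10 build that the submitters' processing notes name. Capitals in Tnp1 (chr1:73015900-73016149, minus strand), Acrv1 (chr9:36692970-36693219, plus strand), Hils1 (chr11:94967343-94967592, plus strand) and Spz1 (chr13:92576233-92576482, minus strand) mark the SOX-type heptamer ACAATGG or its reverse complement. Capitals in Ccin (chr4:43983254-43983503, plus strand) mark the cAMP response element TGACGTCA, and those in Kif21a (chr15:91049952-91050201, minus strand) mark the GC box GGGCGG. The first 5 promoters were higher in RS and the Kif21a promoter was lower.
Tnp1: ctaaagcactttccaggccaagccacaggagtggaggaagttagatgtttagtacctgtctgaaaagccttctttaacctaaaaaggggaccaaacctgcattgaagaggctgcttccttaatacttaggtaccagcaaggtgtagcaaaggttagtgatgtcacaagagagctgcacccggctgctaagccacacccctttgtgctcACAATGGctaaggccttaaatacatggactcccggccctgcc
Acrv1: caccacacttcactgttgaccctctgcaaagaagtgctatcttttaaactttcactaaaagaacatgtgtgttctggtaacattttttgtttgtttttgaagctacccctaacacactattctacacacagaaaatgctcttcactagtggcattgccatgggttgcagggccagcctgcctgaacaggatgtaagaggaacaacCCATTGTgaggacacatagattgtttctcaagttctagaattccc
Hils1: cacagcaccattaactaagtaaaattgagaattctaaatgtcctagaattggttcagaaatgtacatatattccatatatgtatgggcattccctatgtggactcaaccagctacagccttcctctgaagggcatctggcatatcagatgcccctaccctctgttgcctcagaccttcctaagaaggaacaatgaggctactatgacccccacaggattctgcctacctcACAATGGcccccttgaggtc
Spz1: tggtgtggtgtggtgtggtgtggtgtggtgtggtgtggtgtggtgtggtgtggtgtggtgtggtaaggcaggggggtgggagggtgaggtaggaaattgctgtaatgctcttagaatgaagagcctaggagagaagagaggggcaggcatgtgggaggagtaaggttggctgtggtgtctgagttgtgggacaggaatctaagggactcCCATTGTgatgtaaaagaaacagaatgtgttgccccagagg
Ccin: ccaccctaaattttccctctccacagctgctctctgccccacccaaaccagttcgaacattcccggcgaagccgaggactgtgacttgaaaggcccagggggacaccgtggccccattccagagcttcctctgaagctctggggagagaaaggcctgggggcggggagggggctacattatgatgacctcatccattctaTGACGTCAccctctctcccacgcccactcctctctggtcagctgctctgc
Kif21a: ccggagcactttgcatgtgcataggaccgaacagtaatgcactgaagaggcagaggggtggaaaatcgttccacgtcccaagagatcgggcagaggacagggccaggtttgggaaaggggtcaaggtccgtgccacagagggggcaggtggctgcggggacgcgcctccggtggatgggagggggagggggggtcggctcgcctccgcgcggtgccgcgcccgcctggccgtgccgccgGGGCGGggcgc

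Before the stage comparison the libraries were checked against their labels. Scml2, the targeted gene, had a peak at its X-linked promoter in PS replicates 1 and 2, at a fold enrichment of 3.81 and 5.33, and none in either RS library. Histone acetylation at a promoter does not test for the deletion, so this is no check of the genotype. All 8 markers of pachytene spermatocytes, including Sycp3, Hspa2 and Mybl1, and all 8 markers of round spermatids, including Prm1, Tnp1 and Acrv1, had a promoter peak in every library. None of the pachytene markers passed the test (median log2 change -0.22), and 2 of the spermatid markers, Tnp1 and Acrv1, were higher in RS (median 0.52). The replicates correlated at r = 0.930 in PS and 0.941 in RS across tested regions, which are not independent replicates. PS replicate 1 lay nearer to RS than PS replicate 2 did. It was above replicate 2 at 497 of the 550 promoter regions (90.4%) and 1766 of the 2079 distal regions (84.9%) that were higher in RS, against 54.0% of all tested regions.

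At promoters, 550 regions (4.76%) were higher in RS and 632 (5.47%) lower, and most promoters with a peak in all libraries passed in neither direction. The higher promoters had median fold enrichments of 7.63 and 5.33 in PS and of 12.9 and 11.4 in RS. The lower promoters went from 13.3 and 14.9 in PS to 7.43 and 5.95 in RS. Promoters that did not pass were stronger in every library, at 18.3, 19.2, 16.04 and 13.5. Without centring, which shifts the median region by -0.19 log2, the split turned to 471 higher and 1697 lower promoters, so higher regions made up 21.7% of changed promoters instead of 46.5%. With stricter peaks (−log10 q of at least 5) the split turned the other way, to 532 higher and 188 lower, or 73.9% higher. Leaving out PS replicate 2 left no promoter past the threshold (limma, unadjusted p under 0.05 in 598 higher and 1555 lower), leaving out RS replicate 1 left 461 and 218, leaving out RS replicate 2 left 328 and 357, and leaving out PS replicate 1 left 525 and 288. In these fits the cell type with 1 library was assumed to vary like the other.

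**Figure D1:**
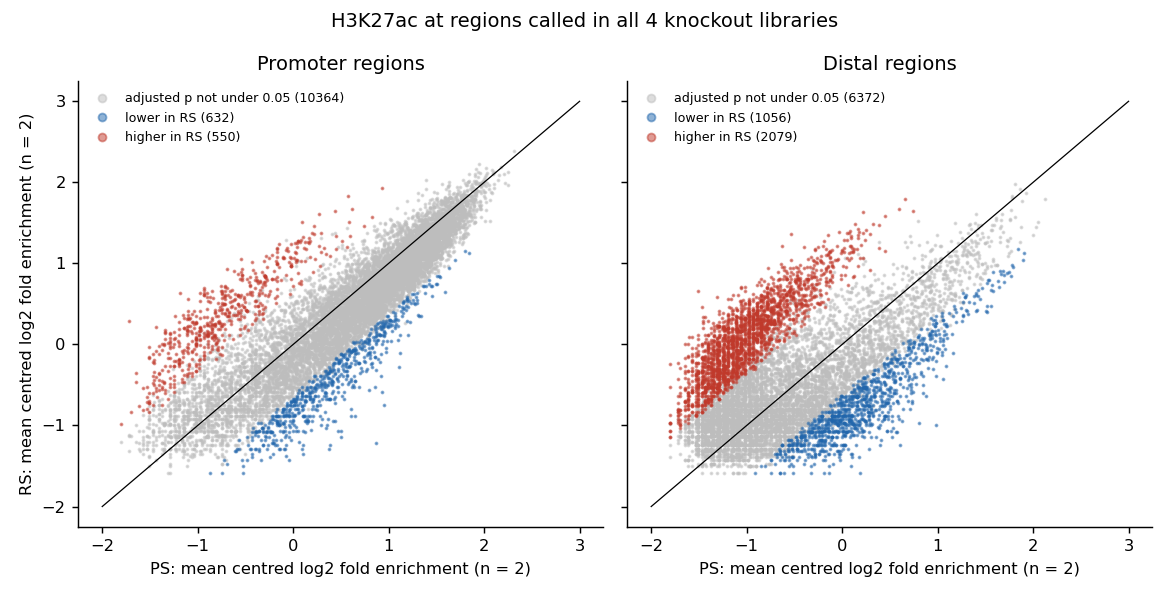
Mean centred log2 fold enrichment in PS (x axis) against RS (y axis), 2 libraries each, for the 11546 promoter regions and the 9507 distal regions called in all 4 libraries; each point is a region, red and blue points passed the test and the line marks equal values. The 550 higher promoters lie mostly at low PS values, and 2079 distal regions lie above the line against 1056 below.

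Distal regions passed the test more often than promoters. Of those tested, 2079 (21.9%) were higher and 1056 (11.1%) lower in RS, or 33.0% in either direction against 10.2% of promoters. The higher distal regions had median fold enrichments of 6.10 and 4.80 in PS and of 11.0 and 9.20 in RS, and the lower ones went from 11.1 and 13.3 to 5.87 and 4.87. Their median log2 changes were 1.07 and -0.89. Without centring the counts were 1732 higher and 1970 lower, so that higher regions fell from 66.3% to 46.8% of the changed distal regions. With stricter peaks they were 965 and 297, or 76.5% higher. No distal region passed without PS replicate 2 (limma, unadjusted p under 0.05 in 3111 higher and 1598 lower). The counts were 1883 and 467 without RS replicate 1, and 1303 and 1047 without RS replicate 2.

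These shares differed with the position of the region. By the class of location in the deposited tables, 25.5% of exonic, 23.3% of intronic, 20.6% of intergenic and 18.1% of upstream regions were higher, and 7.89%, 9.77%, 14.9% and 10.2% were lower. Regions over 100 kb from a start were lower in 19.8% of cases and higher in 24.8%, while those between 1 and 5 kb from a start were lower in 7.26% and higher in 19.1%. The distal regions that were higher spanned a median of 2015 bp, against 1763 bp for the lower ones.

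Peaks present in both libraries of a cell type and absent from both of the other are a description without a test, since a call depends on depth. At promoters, 534 regions (3.05%) had this pattern for RS and 686 (3.92%) for PS. Among distal regions the counts were 7963 (8.61%) and 9230 (9.98%). These were weak peaks, with median fold enrichments between 4.19 and 4.87 in the libraries that had them. Read depth is unknown, and the background heights, which rise with depth, were 1.62 and 0.876 in PS and 1.56 and 0.849 in RS.

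Genes for the proteins that package the haploid genome were among those whose promoters rose. Transition protein 1, Tnp1, which replaces histones before protamines do, had fold enrichments of 11.1 and 6.40 in PS and of 17.6 and 15.7 in RS. Both RS libraries were above both PS libraries, as at all 550 higher promoters, and the log2 change was 1.18 (SE 0.27, adjusted p = 0.0176). Hils1, a spermatid linker histone, went from 20.2 and 13.9 to 35.6 and 26.0 (1.05, SE 0.24, adjusted p = 0.0160). H1fnt, another spermatid linker histone needed for chromatin condensation, went from 16.02 and 10.1 to 23.5 and 26.0 (1.15, SE 0.27, adjusted p = 0.0184). The testis linker histone of spermatocytes, Hist1h1t, moved the other way, from 11.4 and 13.3 to 6.26 and 5.95 (-0.82, SE 0.20, adjusted p = 0.0194). Prm1, a protamine, had 12.2 and 5.86 in PS and 14.5 and 13.5 in RS and missed the threshold (0.92, SE 0.32, adjusted p = 0.0732).

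Of this list of 9 genes for nuclear packaging, 8 were tested, 3 were higher and 1 was lower, against 4.76% and 5.47% of all tested promoters. Each of these calls was lost without PS replicate 2. Those at H1fnt and Hist1h1t were also lost in another fit that left out a library. Prm2, Prm3 and Tnp2 lie in a single merged region of chromosome 16 (10781346 to 10795455) that also holds the start of Socs1, and this region did not pass (0.01, adjusted p = 0.982). Restricted to summits within 1000 bp of each gene's own start, an alternative chosen after seeing the data, Prm2 had 14.5 and 8.53 in PS and 24.3 and 17.9 in RS. Tnp2 had 12.6 and 8.53 in PS and 23.5 and 19.5 in RS. At these summits too, both RS values were above both PS values, and the differences of 1.10 and 1.24 log2 were not tested.

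Flagellum and sperm energy genes had several higher promoters and no lower one. Among the 38 genes, 36 were tested, 13 were higher and none was lower, with a median log2 change of 0.27, against -0.14 over all tested promoters and 4.76% of them higher. Catsper4, a subunit of the sperm calcium channel, showed the largest rise of the list, from 9.53 and 5.86 to 19.6 and 20.0 (1.60, SE 0.27, adjusted p = 0.00821). Odf3, a shell component of the outer dense fibres, went from 11.4 and 8.53 to 21.9 and 23.3 (1.39, SE 0.23, adjusted p = 0.00834). Akap3, a scaffold of the fibrous sheath, went from 8.39 and 5.33 to 13.7 and 14.6 (1.27). Odf1, the main outer dense fibre protein, went from 16.02 and 8.00 to 24.6 and 21.6 (1.22). The groups did not overlap at these 4 genes, as at all 550 higher promoters. The other higher members were Oaz3, Ropn1, Gapdhs, Catsper3, Tssk4, Smcp, Tekt5, Tssk3 and Cabyr, with log2 changes between 0.73 and 1.15, and Cabyr, Tekt5 and Tssk3 missed the threshold in 3 of the 4 fits that left out a library, and Catsper3, Oaz3, Ropn1, Smcp and Tssk4 in 2. Akap4, an X-linked fibrous sheath scaffold, did not pass (0.37, adjusted p = 0.214), nor did Ldhc, the germ cell lactate dehydrogenase (0.19, adjusted p = 0.613). Without centring 11 were higher and 3 lower, without PS replicate 2 none passed, and 6 were higher without RS replicate 2.

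The acrosome list gave 8 higher and 2 lower promoters among 20 tested of 32 genes (median 0.56), against 4.76% higher and 5.47% lower of all tested promoters. Fam170b, an acrosomal protein, led it with 9.15 and 5.86 in PS and 17.6 and 17.3 in RS (1.45, SE 0.26, adjusted p = 0.00891). Acrv1, an acrosomal matrix protein, went from 8.01 and 4.27 to 11.7 and 10.8 (1.14, SE 0.29, adjusted p = 0.0253). Lyzl6, Spaca4, Ccin, Izumo2, Actl7a and Actl7b were also higher, the last 2 through a region that they share. With peaks within 1000 bp joined, the larger region at Spaca4 gave -0.28. Left-out libraries cost Spink2 its call in all 4 fits, Zpbp2, Actl7a and Actl7b theirs in 3, and Lyzl6, Spaca4, Ccin and Izumo2 theirs in 2. Ccin, a cytoskeletal protein of the sperm head, had 9.91 and 5.86 in PS and 13.3 and 13.0 in RS (0.98, adjusted p = 0.0331). Zpbp2, a zona pellucida binding protein, fell from 21.7 and 22.4 to 13.7 and 9.20 (-0.78, adjusted p = 0.0239), and the protease inhibitor Spink2 from 14.9 and 15.5 to 8.61 and 8.11 (-0.67, adjusted p = 0.0381). Among the members without a peak in every library, Izumo1, the sperm protein that binds the egg, had 4.58 in PS replicate 1, no peak in PS replicate 2, and 10.6 and 7.57 in RS. Zp3r had a peak in the RS libraries only, at 8.61 and 3.79. The count of higher members was 0 without PS replicate 2, 4 without RS replicate 2 and 5 without RS replicate 1.

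Promoters of spermatid transcription regulators were close to the background. Of 20 genes, all tested, 2 were higher and 1 was lower, against 10.2% of all tested promoters in either direction, and their median of -0.14 was that of all promoters. Fhl5, the spermatid coactivator of CREM also called ACT, went from 6.10 and 3.73 in PS to 11.3 and 11.9 in RS (1.48, SE 0.27, adjusted p = 0.00940). Spz1, a spermatogenic basic helix-loop-helix factor, went from 16.4 and 9.60 to 25.8 and 23.8 (1.18, adjusted p = 0.0173). The calls at Fhl5 and Spz1 were lost without PS replicate 2. Rfx4, of the RFX winged-helix family, fell from 19.1 and 23.5 to 12.9 and 9.74 (-0.72, adjusted p = 0.0305), a call that missed the threshold in all 4 fits that left out a library. Crem itself, the cAMP-responsive activator of many spermatid genes, had 35.5 and 41.6 in PS and 30.5 and 25.4 in RS (-0.27, adjusted p = 0.357). For a gene with more than 1 listed start the strongest region was taken. For Rfx4 (chr10:84837243-84839068) and Crem (chr18:3335878-3339597) that region lay away from the first listed start, at 84756048 and 3281747. Sox30, a SOX factor required for spermiogenesis, had 35.1, 32.5, 33.2 and 36.2 (0.23, adjusted p = 0.486).

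**Figure D2:**
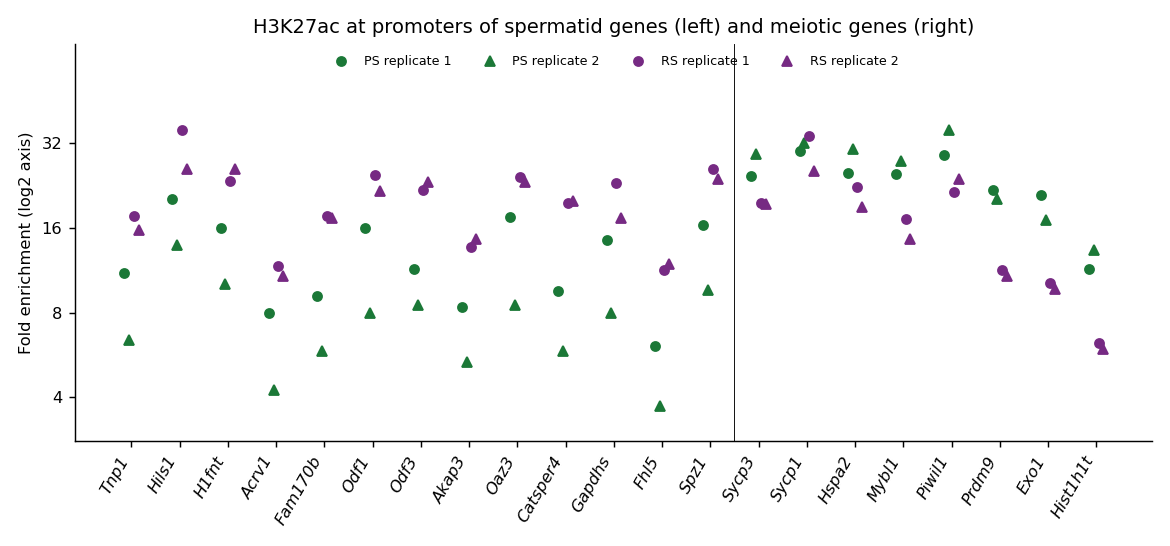
Fold enrichment (log2 axis) at the promoter of each gene in PS (green) and RS (purple), circles for replicate 1 and triangles for replicate 2; the vertical line separates spermatid genes from meiotic genes. The 13 spermatid promoters shown were picked among those that passed as higher. At each of them both RS values lie above both PS values, as at every promoter that passed as higher, and PS replicate 1 lies above PS replicate 2. Spermatid genes that did not pass or were lower, such as Prm1, Akap4 and Zpbp2, are not shown. Of the meiotic genes, Sycp3, Sycp1, Hspa2, Mybl1 and Piwil1 did not pass the test.

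Promoters of meiotic genes still had H3K27ac peaks in round spermatids. Over the synaptonemal complex and cohesin genes (15), the recombination genes (27), the DNA damage response genes (14), the pachytene regulators (17) and the piRNA pathway genes (20), 84 promoters were tested, 1 was higher and 3 were lower, beside 4.76% and 5.47% of all tested promoters. Sycp3, a lateral element of the synaptonemal complex, had 24.4 and 29.3 in PS and 19.6 and 19.5 in RS (-0.26, adjusted p = 0.405). Sycp1, the transverse filament protein, had 30.1 and 32.0 in PS and 34.0 and 25.4 in RS (0.12, adjusted p = 0.712), so its groups overlapped. Prdm9, the methyltransferase that places recombination hotspots, fell from 21.7 and 20.3 to 11.3 and 10.8 (-0.73, SE 0.20, adjusted p = 0.0302). Exo1, a nuclease of recombination and mismatch repair, fell from 21.0 and 17.1 to 10.2 and 9.74 (-0.73, adjusted p = 0.0376), and the checkpoint kinase Bub1b from 14.1 and 15.5 to 9.39 and 7.03 (-0.67, adjusted p = 0.0360). Rec8, the meiotic cohesin, went from 10.3 and 5.86 to 14.5 and 11.4 (0.92, adjusted p = 0.0435). Mybl1, the activator of pachytene genes and piRNA precursors, had 24.8 and 27.7 in PS and 17.2 and 14.6 in RS and did not pass (-0.53, adjusted p = 0.0765). The 3 falls missed the threshold in all 4 fits that left out a library, and the rise of Rec8 in 3. With stricter peaks none was lower, and without centring these 5 lists together gave 1 higher and 13 lower promoters.

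The acetylation machinery showed no change that passed. None of the 18 writers, erasers and readers of the mark did in the limma fit (unadjusted p under 0.05 in 0), with a median of -0.22. Ep300, which encodes p300, had 44.2 and 43.2 in PS and 41.9 and 36.8 in RS (0.04, adjusted p = 0.912). Brdt, the testis bromodomain protein that reads histone acetylation, had 17.5 and 25.1 in PS and 14.9 and 11.9 in RS (-0.46, adjusted p = 0.159).

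**Figure D3:**
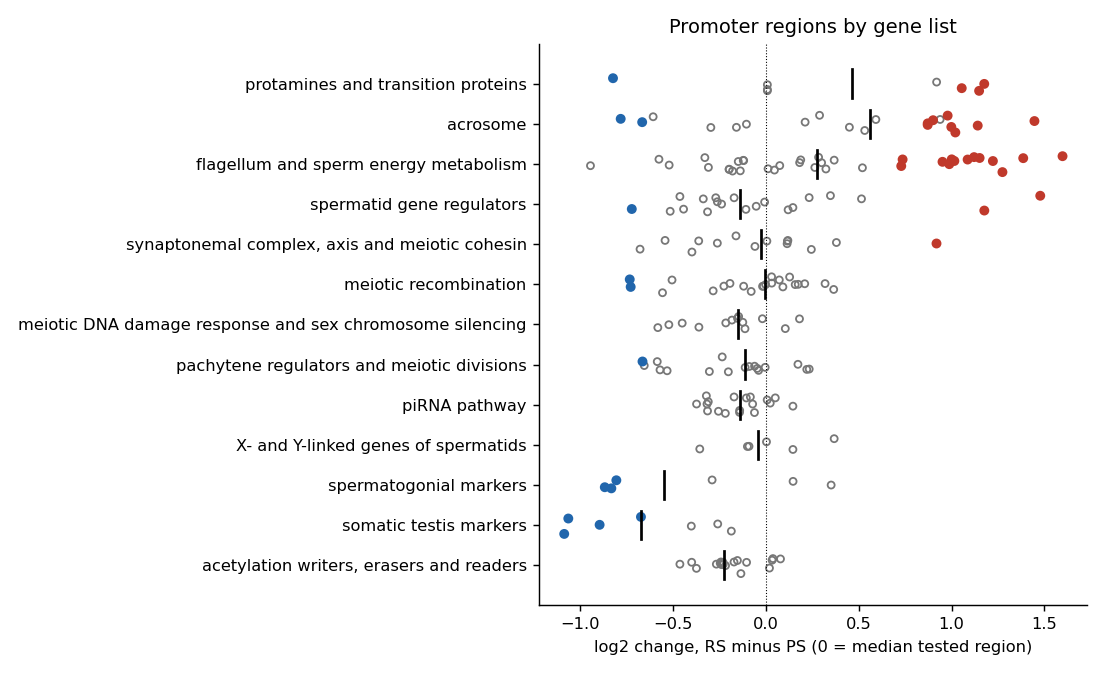
The log2 change at promoters, RS minus PS relative to the median tested region, for 13 gene lists; each point is a gene with a peak in all 4 libraries, filled red or blue where it passed the test, and the black bar is the list's median. Red points are confined to the upper 5 lists in this fit, with 13 in the flagellum list and 8 in the acrosome list.

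The largest promoter changes lay outside these lists. The largest promoter rise was at Arap1, a GTPase-activating protein (chr7:101381374-101386002), with 3.43 and 3.20 in PS and 12.5 and 10.8 in RS (2.01, SE 0.19, adjusted p = 0.00739). Iqcf1, a testis calmodulin-binding protein of sperm, went from 7.24 and 3.20 to 15.6 and 14.1 (1.82), and Morn3, a testis protein with MORN repeats, from 8.77 and 3.73 to 16.4 and 14.6 (1.63). Aatk, Lrmp and Fam110a rose by between 1.62 and 1.66 log2. At the other end was Kif21a, a kinesin motor (chr15:91048299-91050791), whose promoter fell from 18.7 and 21.3 to 3.91 and 4.33 (-2.08, SE 0.21, adjusted p = 0.00739). Cgnl1, a junction protein, fell from 19.8 and 22.4 to 6.65 and 4.87 (-1.70), and the axonemal dynein heavy chain gene Dnah9 from 12.6 and 15.99 to 3.13 and 4.87 (-1.67). Mlxipl, a glucose-responsive transcription factor, and Fam134b, a receptor for turnover of the endoplasmic reticulum, fell by 1.65 and 1.63 log2, and Tpd52l1 fell by 1.57. As for every promoter that passed, the values of the groups did not overlap at these 12. Each of these calls was lost without PS replicate 2, and that at Dnah9 also in another fit that left out a library.

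The strongest distal changes lay near genes of various functions. A region in an intron of P2ry6, a receptor for UDP (chr7:100949428-100951571), went from 4.58 and 3.20 to 15.6 and 14.6 (2.18, SE 0.23, adjusted p = 0.00739). An exonic region of Gmcl1, the mouse germ cell-less gene needed for sperm nuclear shape (chr6:86717886-86720301), rose from 7.24 and 6.93 to 22.7 and 21.6 (1.84, SE 0.20). Upstream of Dcun1d1, a neddylation factor (chr3:35936334-35939307), values went from 7.63 and 7.46 to 23.9 and 25.4 (1.90). Regions near Lgmn, Tmem189 and Rftn1 rose by 1.93, 1.89 and 1.79 log2. An intergenic region whose nearest listed start is that of Enc1 (chr13:97296237-97299912) fell from 18.7 and 25.1 to 4.69 and 4.87 (-1.98, SE 0.22, adjusted p = 0.00739). A region upstream of Txndc2, the sperm thioredoxin (chr17:65646354-65650239), fell from 16.02 and 15.5 to 4.30 and 4.33 (-1.67), though with peaks within 1000 bp joined the larger region gave 0.64. Regions near Hs3st3b1, Rab14, Bicd1 and Gm16130 had log2 changes between -1.85 and -1.65. The nearest start is a matter of position, not evidence of a target.

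Distal regions were then set against their nearest gene's promoter. Where a distal region was higher and that promoter was tested (1450 regions), the promoter was higher in 5.03% and lower in 4.97%. Where a distal region was lower (623 regions), the promoter was higher in 4.98% and lower in 8.99%, and for distal regions that did not pass the shares were 4.61% and 6.60%. The share of higher promoters was thus similar beside distal gains and distal losses alike. The recombination genes, none of whose promoters was higher, were nearest to 11 tested distal regions, of which 6 were higher, against 21.9% higher and 11.1% lower over all tested distal regions. These included a region near Tex15 (5.34 and 3.73 to 12.1 and 10.3, log2 1.52) and a region near Trip13 (6.48 and 4.80 to 13.7 and 13.5, log2 1.48). The piRNA genes were nearest to 12 tested distal regions, of which 4 were higher, near Asz1, Rnf17, Ddx4 and Pld6, and none lower. For the flagellum list 6 of 23 were higher and 5 lower, and for the acrosome list none of 8 was higher and 3 were lower. For the spermatid regulators 4 of 12 were higher, near Rfx4, Crem and Rfx2, and 1 was lower, near Rfx3.

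Most changed regions stood alone. Joining changed regions of the same direction within 50 kb gave 2184 higher and 1481 lower loci, of which 1830 and 1316 were single regions and 69 and 34 held 3 or more. The largest held 6 higher regions out of 16 tested over 92.3 kb at Morn1 and Ski on chromosome 4 (155109811 to 155202080), all 6 distal and none of the 16 lower. Their medians were 4.96 and 4.80 in PS and 9.39 and 7.30 in RS. At Trpm1 on chromosome 7 a run of 5 distal regions went from 9.15 and 5.86 to 15.6 and 13.5. The largest run of lower regions, 5 of 11 tested at Slc7a5, BC048644 and Banp on chromosome 8, went from 9.91 and 10.7 to 5.08 and 4.87.

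Counts on the sex chromosomes were set beside those on the autosomes, and the difference was not tested. On the X none of 119 tested distal regions was higher and 36 (30.3%) were lower (limma, median -0.49), whereas 22.2% of autosomal distal regions were higher and 10.8% lower (median 0.09). Between 17.0% and 26.6% of the distal regions were higher on each autosome. On the Y 8 of 10 tested distal regions were lower (median -0.94). X-linked promoters were higher in 4 and lower in 34 of 342 (9.94%), against 4.88% and 5.34% of autosomal promoters. X-linked calls pointed the same way, with 241 of 1480 distal regions called only in PS and 54 only in RS. On the autosomes the counts were 8976 and 7909 of 90976. The number of higher X-linked distal regions was between 0 and 4 over all alternatives, and that of lower ones fell to 15 with the stricter peak threshold, to 21 without RS replicate 1 and to 0 without PS replicate 2 or with uncalled libraries kept, and rose to 61 without centring.

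Ccnb3, an X-linked meiotic cyclin, had the largest fall among X-linked promoters (chrX:7040149-7045290), from 19.4 and 20.3 to 8.21 and 5.41 (-1.38, SE 0.20, adjusted p = 0.00739). The 4 X-linked promoters that rose were those of Satl1, Gm1720, Ctag2 and 1700054O13Rik, of which 1700054O13Rik missed the threshold in all 4 fits that left out a library, Gm1720 in 3 and Ctag2 in 2. Satl1 went from 4.58 and 3.20 to 7.82 and 9.20 (1.34, SE 0.26, adjusted p = 0.0105). The calls at Satl1 and Ccnb3 were lost without PS replicate 2. Distal regions nearest to Zfy2, a Y-linked zinc finger gene, fell at 3 places, and the strongest of them had 20.6 and 35.7 in PS and 12.5 and 13.0 in RS (-0.90, adjusted p = 0.0397). In contrast the promoter of Zfy2 had peaks in RS only, at 5.87 and 3.79, and so did that of the X-linked Cypt2, at 4.30 and 4.87. Of the 18 X- and Y-linked spermatid genes, 6 were tested and none passed (limma, none with an unadjusted p under 0.05), and 8 had no peak, among them the multicopy Slx, Slxl1, Ssty1 and Ssty2, whose near-identical copies make a peak call uncertain. Per library, X-linked regions were 2.03% and 2.99% of regions in PS and 1.48% and 1.51% in RS. The difference of -1.01 percentage points had the smallest p that 2 against 2 libraries allow (exact permutation test, 2-sided, p = 0.333). The promoter share was 25.8% and 26.8% in PS and 23.5% and 29.0% in RS (exact permutation test, 2-sided, p = 1).

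**Figure D4:**
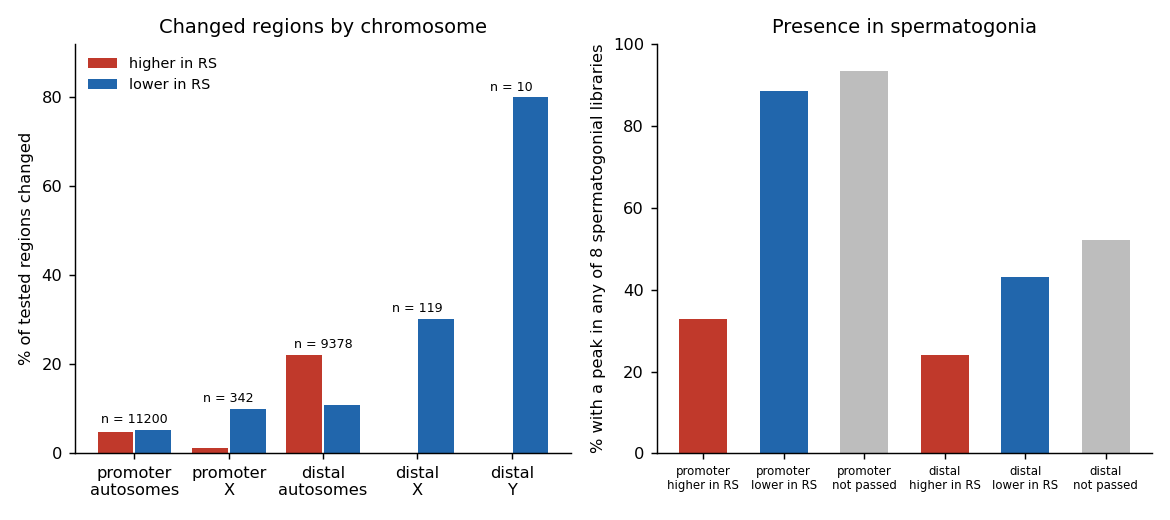
Left, percentage of tested regions higher (red) or lower (blue) in RS by class and chromosome, with the number tested; right, percentage of each class of regions with a peak in any of 8 spermatogonial H3K27ac libraries. X-linked and Y-linked distal regions show blue bars only, and 32.9% of higher promoters had a spermatogonial peak against 88.4% of lower ones.

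A minority of the regions gained in RS had a peak in spermatogonia, the cells before meiosis. The series' 8 H3K27ac libraries of Thy1+ and c-Kit+ spermatogonia from mice at postnatal day 7, wild type or Scml2-KO, entered no fit and were used only for the presence of a peak. A peak in any of them was found at 32.9% of higher promoters, 88.4% of lower promoters and 93.4% of promoters that did not pass. For distal regions the shares were 24.1%, 43.1% and 52.2%. Of promoters called only in RS 22.7% had such a peak, against 51.0% of those called only in PS, and for distal regions the shares were 10.1% and 34.9%. Tnp1, Hils1, H1fnt, Acrv1, Odf1 and Fhl5 had no peak in any spermatogonial library, whereas Kif21a and Cgnl1 had a peak in all 8. Promoter regions of Sertoli cell markers had peaks in these libraries too. Gata4 had one in all 8, Sox9 and Amh in 6 and Wt1 in 5, while Cldn11 and Dhh had none. Whether the shared peaks came from spermatogonia or from other cells was not tested.

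Gained promoters also differed in sequence. The RefSeq windows from 250 bases before to 50 after the start numbered 526 in higher promoters, 633 in lower promoters and 11442 in those that did not pass. Median GC content was 52.0%, 60.3% and 62.3%, with 4, 17 and 23 CpG dinucleotides per window, against 52.7% and 7 over all 32851 windows. The GC box GGGCGG was in 26.2% of higher, 62.6% of lower and 67.7% of windows in promoters that did not pass, and in 35.7% of all windows. The SOX-type heptamer ACAATGG, searched on both strands as were all motifs, was in 10.3% of higher (54 of 526), 1.58% of lower and 1.98% of the windows that did not pass, and in 3.66% of all windows. Among windows with 0 to 3 CpG it was in 14.5% of higher promoters, 9.82% of those that did not pass and 5.93% of all. Among windows with 4 to 8 CpG the shares were 10.7%, 4.21% and 4.27%, and among those with 9 to 15 CpG they were 7.14%, 2.15% and 2.83%. Among windows with 16 or more CpG it was in 0 of 81 higher promoters, 1.48% of those that did not pass and 1.41% of all. Within higher promoters 38 of 55 matches (69.1%) lay in the last 100 bases before the start, against 75 of 232 (32.3%) in those that did not pass. In the sequences shown above, the match starts 42 bases before the start of Tnp1, 45 before that of Acrv1, 20 before that of Hils1 and 41 before that of Spz1.

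Response elements of other spermatogenic factors were counted in the same windows. TGACGTCA, as at Ccin, was in 1.90% of higher, 1.74% of lower and 3.57% of the windows that did not pass, and in 1.79% of all; its core TGACGT, which includes those matches, was in 5.32%, 6.16%, 13.0% and 7.51%. The RFX-type GTTGCCA was in 6.27%, 3.00%, 4.54% and 4.38%, and the MYB-type CAGTTG in 13.1%, 12.8%, 10.1% and 13.7%. A match is a description of the letters in the window and shows no binding.

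Markers of somatic and blood cells moved with the cell type. Of 8 Sertoli cell markers, 6 had peaks in both PS libraries and 3 in both RS libraries, and their fold enrichments summed to 49.95 and 66.6 in PS and to 16.8 and 14.1 in RS. Gata4, a transcription factor of these supporting cells, had 11.1 and 12.8 in PS and 5.08 and 4.87 in RS (-1.06, adjusted p = 0.00958), and Wt1 had 8.77 and 8.53, then 3.91 and 3.25 (-1.09, adjusted p = 0.00887). Amh was lower too. The calls at Gata4, Wt1 and Amh were lost without PS replicate 2, and that at Amh also in other fits that left out a library. Sox9, Cldn11 and Dhh had peaks in PS only, a pattern found at 3.92% of all promoter regions, while Rhox5 and Fshr had none in any library. Of 6 Leydig cell markers 4 had peaks in PS, summing to 25.9 and 29.9, and 1 in RS, at 6.65 and 5.41, with Cyp17a1 and Hsd3b1 at 0. Peritubular markers had at most 1 peak in any library. Endothelial markers had 2 of 4 in each library, summing to 14.5 and 16.5 in PS and to 11.7 and 9.74 in RS, with Tek and Kdr at 0.

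Most of the myeloid genes looked at ran in the opposite direction. The 3 macrophage markers summed to 23.3 and 18.7 in PS and to 30.5 and 24.3 in RS, most of it at Cd68. Cd68 itself did not rise, with 20.2 and 18.7 in PS and 15.3 and 14.6 in RS (-0.19, limma adjusted p = 0.556). Csf1r had 3.05 in PS replicate 1, no peak in PS replicate 2, and 9.00 and 4.33 in RS, and Adgre1 had peaks in RS only. Of 20 further myeloid genes, a list drawn up after some of their values had been seen, 6 and 3 had a peak in PS replicates 1 and 2, and 20 and 19 in the replicates of RS. Their fold enrichments summed to 44.2 and 26.1 in PS and to 198 and 164 in RS. Of these genes 13 were called only in RS, a pattern found at 3.05% of all promoter regions. Of those with a peak in every library, Aif1 passed the test and was higher in RS, while Fcer1g (0.06) and Cd14 (0.40) did not pass. Cd53, a leukocyte tetraspanin (chr3:106787411-106790916), had no peak in PS and 11.0 and 10.3 in RS. It was among the 3 strongest promoters called only in RS, with AI607873 (12.5 and 9.74) and Hpgds, the prostaglandin D synthase of blood cells (11.0 and 10.3). Strong distal calls of that kind lay in an intron of Pik3ap1, an adaptor of B cells and macrophages (14.9 and 14.6), and in an exon of Tuft1 with Snx27 as the nearest listed start (14.1 and 12.4). Among promoters called only in PS the strongest were BC021891 (12.6 and 15.5), Kitl, the ligand that Sertoli cells present to KIT (11.4 and 14.4), and Cacnb2 (9.91 and 14.4). Distal calls of that kind were strongest near Epb4.1l3, 4930546K05Rik and Parp11, with 14.1 and 17.1 near the first.

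These marker values moved with the gains and losses described above. Their part in the counts of higher, lower and single-stage regions was not tested. Fewer cells of a type and less acetylation per cell cannot be told apart in these bulk libraries. The 8 spermatogonial markers summed to 58.7 and 36.3 in PS and to 43.0 and 30.3 in RS. Of a longer list of 15 such genes 6 were tested and 3 were lower, beside 5.47% of all tested promoters. These were Id4 (13.7 and 19.7 to 8.21 and 7.57, -0.87), Etv5 (23.3 and 22.9 to 12.5 and 10.3, -0.83) and Kit (8.01 and 10.1 to 6.26 and 3.25, -0.81), and Gfra1 and Nanos2, markers of stem cells, had no peak. The call at Etv5 was lost in all 4 fits that left out a library, that at Kit in 3 and that at Id4 in 2. Etv5 and Gata4 also act in Sertoli cells.

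**Figure D5:**
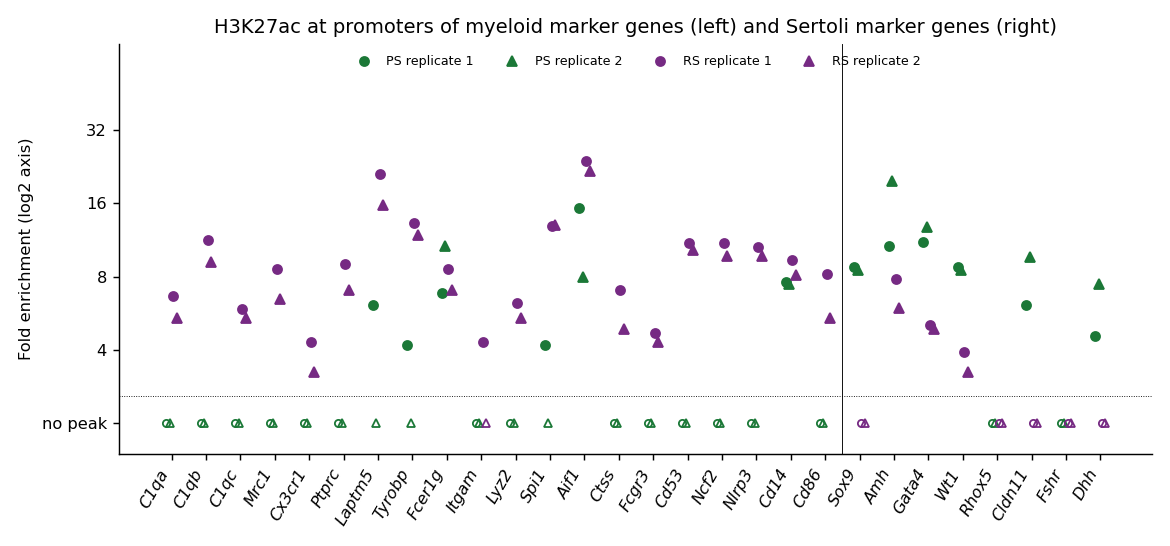
Fold enrichment (log2 axis) at promoters of 20 myeloid genes and 8 Sertoli cell markers in PS (green) and RS (purple), circles for replicate 1 and triangles for replicate 2; open symbols on the bottom line mark libraries without a peak. Myeloid promoters are mostly without a peak in PS and between 3.25 and 23.9 in RS, and 3 Sertoli markers have peaks in PS only.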

How the data were processed

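The 4 H3K27ac libraries of Scml2-KO cells and 16 Input libraries each had a table of called peaks, and the titles gave each library its group and number. The submitters' processing notes name Bowtie, MACS2 and mm10, with no versions, and the peak calling settings are not given in the sources used here. Per the file headers, the deposited tables hold the signal height (pileup) at each summit, a fold enrichment ratio, and −log10 p and −log10 q values. The deposited fold enrichment equalled the height plus 1 over a constant background height plus 1 in each library, so it carries no local or Input control. The libraries held 69042 and 64056 peaks in PS and 73316 and 63322 in RS; their read depth is unknown, so no interval from counts is given.

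Peaks overlapping by at least 1 bp were merged, and mitochondrial peaks and regions overlapping a peak of any Input were left out. Log2 fold enrichments were centred and fitted with limma 3.58.1 (lmFit, eBayes; R 4.3.3), with Benjamini-Hochberg adjustment over all 21053 tested regions at 0.05. The median SE was 0.21 log2 and no difference under 0.60 passed. The fit was also run on simulated data with independent noise in each library, which cannot show how calls depend on a single library. Shares per library were compared by exact permutation tests, using Python 3.11.15, numpy 2.4.6 and pandas 2.3.3. Sequences came from RefSeq tables, in which 12601 promoter windows had their start in a tested promoter region. Named genes are the 6 regions with the largest change per class and direction, the 3 strongest regions called in a single cell type per class, and members of 13 gene lists; 1 region that this rule names is not reported here. The members and lists were chosen with earlier results of these data known, and the myeloid list and a second Sertoli list after their values were seen. Alternatives covered scaling, peak threshold, overlap, uncalled libraries, variance model, replicate block, leaving out each library, peak number, Input removal and promoter width. Replicate numbers were not used to pair libraries.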

Additional observations from a re-analysis of the deposited data

How the results depend on the processing

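Without centring, lower regions rose to 1697 at promoters and 1970 at distal sites. With peaks of −log10 q of at least 5, 532 promoters were higher and 188 lower, 965 distal regions were higher and 297 lower, and 3203 and 3930 distal regions were called in RS only and PS only. With peaks within 1000 bp joined, calls in RS only and PS only were 300 and 436 at promoters and 4462 and 6030 at distal sites. With uncalled libraries given their lowest called value no region passed in either class or direction (0 in limma, unadjusted p under 0.05 in 750 higher and 6470 lower promoters and in 7060 higher and 10954 lower distal regions). With limma-trend 1040 promoters were lower. With promoters taken within 2500 bp of a start, 1301 and 1350 promoters were called in RS only and PS only, and the promoter share was 1.05 percentage points higher in RS; with the strongest 63322 peaks of every library it was 0.337 points higher, against -0.03 in all peaks. Leaving out each library in turn gave 0 to 525 higher and 0 to 357 lower promoters, 0 to 1883 higher and 0 to 1047 lower distal regions, 606 to 1800 promoters and 8560 to 28915 distal regions called in RS only, 791 to 1882 promoters and 10005 to 25773 distal regions called in PS only, a promoter share difference of -3.17 to 1.18 points and an X-linked share difference of -1.44 to -0.62 points. A call absent from 1 library needs no second absence in these fits, which raises the single-stage counts by construction; the cause of the other shifts was not tested. With the replicate block 583 promoters were higher and 619 lower, and 2155 and 1095 distal regions. Same-numbered libraries deviated together at a correlation of 0.04, so the numbers were not used as pairs, although replicate 1 had the higher background height in both cell types (1.62 and 1.56 against 0.876 and 0.849). Of 86 named results, 72 passed the threshold, and 72 of these missed it without PS replicate 2 and with uncalled libraries at their lowest value, 10 with quantile normalization, 14 without PS replicate 1, 20 without RS replicate 1 and 26 without RS replicate 2; with peaks within 1000 bp joined, the distal region near Txndc2 gave 0.64 and the promoter of Spaca4 -0.28. Unknown depth limits every statement on the absence of a peak.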

Other observations

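Counts for other gene families, looked at after their values were seen and without a test, stand beside 4.76% higher and 5.47% lower of all tested promoters, and most members of each family did not pass. Genes known only by clone or predicted names (Rik or Gm) held 166 of the 550 higher promoters (30.2%) and 70 of the 632 lower ones (11.1%), against 8.13% of tested promoters. Of 24 tested promoters of Tex genes, named for testis expression, 7 were higher and none was lower, and of 19 Spata genes, named for spermatogenesis, 5 were higher and 1 was lower. Clustered histone genes, most of which supply histones for DNA replication, had 5 lower and no higher promoters among 45 tested. These were Hist1h1b, Hist1h3e, both promoter regions of Hist2h3b, and Hist1h1t, the testis linker histone of spermatocytes. Aldehyde dehydrogenase genes had 4 lower promoters among 12 tested (Aldh1b1, Aldh1l1, Aldh2 and Aldh5a1). Zinc finger genes of the Zfp series, near the background for lower promoters, had 1 higher and 16 lower among 296, and solute carriers 5 higher and 16 lower among 187. The 15 further Sertoli genes, chosen after values were seen, were placed by name or synonym. For Rhox8 and Abcb1a this gave starts on chromosomes 4 and 17 that are not those of these genes. With these starts included, the list had 13 peaks in each PS library and 8 and 5 in RS. Fold enrichments summed to 162 and 191 in PS and to 103 and 77.9 in RS. The start taken for Abcb1a gave 31.6 and 44.3 of these in PS and 32.1 and 29.2 in RS. Among the other genes, Kitl, Aard, Gdnf and Shbg had peaks in PS only, as did 3.92% of all promoter regions. Tuba8 was higher in RS (log2 1.02) and Inha was lower (log2 -0.75).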
